A study of Mus musculus with 4 samples.

Results

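In the adult brain, neural stem cells divide to supply new neurons and glia, and 57 genes that carry cells through mitosis are described here in such cells with a hairpin RNA against Ogt. The genes were taken from a list of mitotic kinases, checkpoint, kinetochore, condensin, spindle and cytokinesis genes, with kinesins left out. The list was chosen with earlier results of these data known, so the counts below are not those of a blind choice. All 57 matched a row of the table by symbol and all 57 passed the filter on low values, among 21829 genes tested. O-GlcNAc transferase, the product of Ogt, modifies nuclear and cytoplasmic proteins with a single sugar. The cells came from C57BL/6 mice of 8 weeks and were all infected with a lentivirus, which carried an shRNA against mouse Ogt (shOGT, n = 2) or a scrambled shRNA (ctrl, n = 2). Whether replicates are separate cultures is not stated in the labels, so p-values measure only the spread between these libraries, which may be technical. The labels name neither the number of mice nor the promoter that drives the hairpin.

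Mitosis begins when cyclin B and CDK1 become active together with the Aurora and Polo kinases. Condensins then compact the chromosomes, kinetochores built on the centromere attach them to the spindle, and the spindle checkpoint holds back the anaphase-promoting complex until every kinetochore is attached. Transcription of these genes peaks late in the cell cycle. In mammals many of their promoters carry a CHR (cell cycle genes homology region) element, which is bound by the DREAM complex when the gene is repressed and by the activators B-MYB and FOXM1 with the same core later, often beside CCAAT boxes bound by NF-Y.

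RefSeq promoters on GRCm38.p6, 250 bases before to 50 after each annotated start, were at hand for 47 of the 57 genes, as 51 promoters. No entry was matched for Foxm1, Pbk, Cdca2, Spc24, Aurkb, Dlgap5, Ccna2, Cdc25c, Tpx2 and Smc4. A CHR-like motif, here TTTGAA or either of the variants TTCGAA and also TTTAAA, on either strand, stood in 39 of the 51 (76.5%), against 28.8% of all 32851 promoters and 20.4% of the 7746 promoters of genes expressed at or above the lowest of the 57. Within 50 bases on either side of the start the shares were 66.7% of the mitosis promoters, 8.62% of all promoters and 5.46% of those of expressed genes. CCAAT on either strand stood in 76.5% of the mitosis promoters and 37.4% of all, and CCAAT and a CHR-like motif stood together in 66.7% of the mitosis promoters and 11.3% of all. Matches were counted whether or not they overlapped. A match describes letters and does not show that a factor binds there.

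The 10 windows shown here are those of the genes with the largest falls among the genes called lower that held a CHR-like motif. They are given 5′ to 3′ on the strand of the gene, with the motif nearest the start in capitals; TTCAAA is TTTGAA read on the other strand.
Birc5: cagcggacatgcTTTAAAgaggtgccccag
Ccnb1: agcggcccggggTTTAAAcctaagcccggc
Spc25: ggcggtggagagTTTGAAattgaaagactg
Cdca3: cgtggagggaagTTTGAAactccgggcttt
Knl1: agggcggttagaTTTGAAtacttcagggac
Cenpa: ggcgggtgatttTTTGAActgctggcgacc
Ube2c: ggagggttgcaaTTCAAAcgcgggcggcgg
Smc2: ctcgcgccgaaaTTCAAAggaacagttccg
Ckap2l: ttattggcgaatTTCAAAgtcgcggaagcc
Prc1: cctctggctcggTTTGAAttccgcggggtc

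Counted from the annotated start, with no position 0, the first base of the motif lay at -220 in Birc5, -42 in Ccnb1, -30 in Ckap2l, -29 in Ube2c and -5 in Prc1. It lay at 17 in Cenpa, 25 in Spc25, 27 in Smc2, 31 in Cdca3 and 32 in Knl1, so that 9 of the 10 motifs were within 50 bases of the start and that of Birc5 was not. The windows are chr11:117849005-117849034 (Birc5, plus strand), chr13:100786511-100786540 (Ccnb1, minus), chr2:69206172-69206201 (Spc25, minus), chr6:124830194-124830223 (Cdca3, plus) and chr2:119047138-119047167 (Knl1, plus). The others are chr5:30666890-30666919 (Cenpa, plus), chr2:164769888-164769917 (Ube2c, plus), chr4:52439235-52439264 (Smc2, plus), chr2:129297225-129297254 (Ckap2l, minus) and chr7:80294434-80294463 (Prc1, plus), all on GRCm38.p6.

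**Figure D1:**
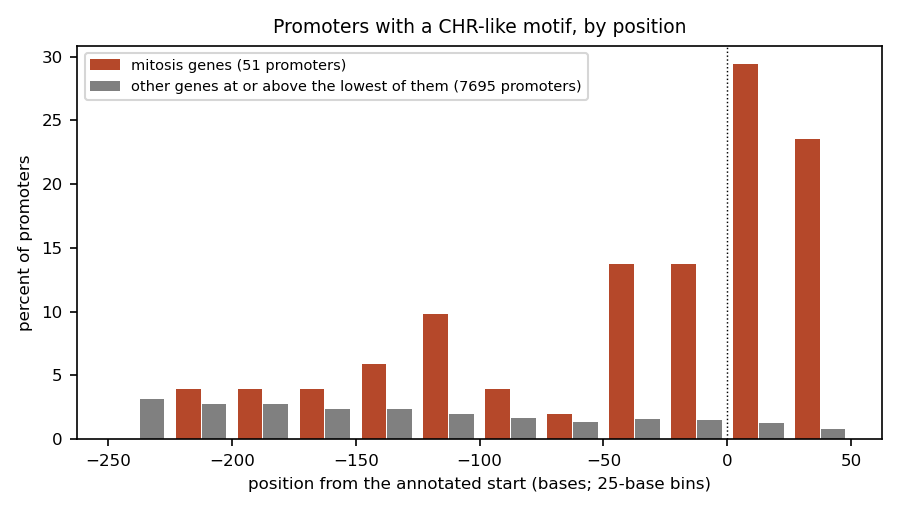
Percent of promoters in which a CHR-like motif (on either strand) begins in each bin of 25 bases, by position in bases from the annotated start, for the 51 promoters of the mitosis genes (left bar of each pair) and the 7695 promoters of other genes expressed at or above the lowest of them (right bar). The mitosis promoters reached 29.4% in the first bin after the start, where the other promoters stood at 1.27%.

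Ogt, the targeted gene, measured 3379 and 3516 in shOGT and 4112 and 4138 in ctrl. Ogt fell by 16.4% (log2 fold change -0.26, SE 0.04, n = 2 each, limma adjusted p = 0.00876). In the values below, ± after a log2 fold change is its SE. Values are the deposited signal per gene, and each was a whole multiple of 1 step per library. If a step stood for 1 read, which no source used here states, the libraries would hold 15697508 and 17753976 reads in shOGT and 16909316 and 17090949 in ctrl. Of 12 stem cell markers, all were above 0 in every library, with summed values of 134926 and 140053 in shOGT and 143594 and 147527 in ctrl. Neuron markers summed to 18249 and 18032 in shOGT and 16100 and 16595 in ctrl, astrocyte markers to 32902 and 34478 against 34530 and 33850 in ctrl, and oligodendrocyte lineage markers to 60708 and 59733 against 58457 and 59274 in ctrl. All 10 neuron and all 8 astrocyte markers and 8 of 10 oligodendrocyte markers were above 0 in every library. Of 8 microglia markers, Cx3cr1 and Itgam are not analysed here, 2 were above 0 in every library, and Tmem119, Csf1r and C1qa did not reach the filter, with sums of 9.57 to 13.2 in shOGT and 8.93 to 10.97 in ctrl. Of 8 endothelial and mural markers, Cldn5 and Cdh5 are not analysed here and the other 6 were above 0 in every library, with sums of 82.0 to 101 in shOGT and 82.8 to 129 in ctrl. Beside the lower mitosis genes, the stem cell sum was thus lower in both shOGT libraries than in both ctrl libraries. The neuron and oligodendrocyte sums were higher in both shOGT libraries. Gene by gene the stem cell markers were split, with 6 below 0, 6 above and a median log2 fold change of -0.003. At an unadjusted limma p under 0.05, 2 of them were lower and 2 higher. Neuron markers ran from -1.11 to 0.75, with 8 of 10 above 0. By limma, 2 of 12 stem cell, 0 of 10 neuron, 3 of 8 astrocyte (37.5%) and 2 of 9 tested oligodendrocyte markers were lower. Called higher were 1 neuron and 1 astrocyte marker. Of all genes tested 2.9% were called lower and 1.96% higher. Of genes expressed at or above the lowest mitosis gene the shares were 6.9% and 4.21%. Of the 8 astrocyte markers 4 stood below 0 and 4 above, from -0.63 to 0.43. The oligodendrocyte markers ran from -1.13 to 1.66 with a median log2 fold change of -0.18 and 6 of 9 below 0, so that most stood opposite to their sum. The part of cell composition in the result was not tested.

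The mitosis genes were lower as a group in shOGT, by small amounts. Of 57 genes, 16 were called lower and 0 higher at a limma adjusted p under 0.05, which is 28.1% of them, where 2.9% of all genes tested were called lower and 1.96% higher. Among the 7581 genes expressed at or above the lowest mitosis gene, 6.9% were called lower and 4.21% higher. At an unadjusted p under 0.05, 43 were lower and 0 higher, where 10.3% of all genes tested were lower and 9.02% higher, and 19.7% and 15% of the genes of that level. The median log2 fold change was -0.18, with quartiles of -0.23 and -0.10, where all genes tested had a median of 0.001 and the genes of that level one of -0.01. Below 0 stood 55 of the 57, against 49.8% of all genes tested. The median percent change was -11.5%, and the largest of the 57 was that of Cenpi (-22.8%). In bulk RNA fewer cells in mitosis and less RNA per cell cannot be told apart.

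In 48 of the 57 genes (84.2%) both shOGT values lay under both ctrl values, and in 0 over both, where 24.3% of all genes tested and 34.4% of the genes of that level lay under, and 25% and 28.8% lay over. The 9 genes whose groups overlapped were Pttg1, Espl1, Ncaph, Cdca2, Troap, Ckap2, Gtse1, Anln and Mybl2. The lowest value of a gene was found in shOGT 1 for 20 genes and in shOGT 2 for 37, and never in a ctrl library. Summed, the 57 genes made up 0.725% and 0.709% of the total in shOGT and 0.801% and 0.786% in ctrl. Between the shOGT libraries the 57 genes differed by a chi-square of 2.51 per gene, with each step taken as 1 read, and between the ctrl libraries by 1.86, where sampling noise alone gives about 1. Between groups the same measure was 11.8 to 21.02. Over all genes with at least 20 such reads in the pair compared, it was 3.33 between the shOGT libraries and 2.02 between the ctrl libraries. Between groups it was 7.38 to 8.13 over all those genes. For a given fold change the measure grows with the number of reads, and each of the 57 genes had a mean value of at least 429.

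The calls changed with the settings. With quantile normalization, with no filter, with no variance trend, or without any 1 of the 4 libraries, limma called 0 of the 57 genes and 0 genes of the whole table. At an unadjusted p under 0.05, 37 of the 57 (64.9%) were lower with quantile normalization, against 9.02% of all genes tested and 15.6% of the genes of that level. With no filter 41 (71.9%) were lower, against 9.06% and 18.3%. With no variance trend 11 (19.3%) were lower, against 6.19% and 6.31%. Without shOGT 1, shOGT 2, ctrl 1 or ctrl 2 the median was -0.18, -0.14, -0.16 and -0.17, and 57, 51, 54 and 55 genes stood below 0. At an unadjusted p under 0.05, 31, 26, 27 and 27 of the 57 were then lower (45.6% to 54.4%), against 5.75% to 9.0% of all genes tested and 11.1% to 15.5% of the genes of that level.

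**Figure D2:**
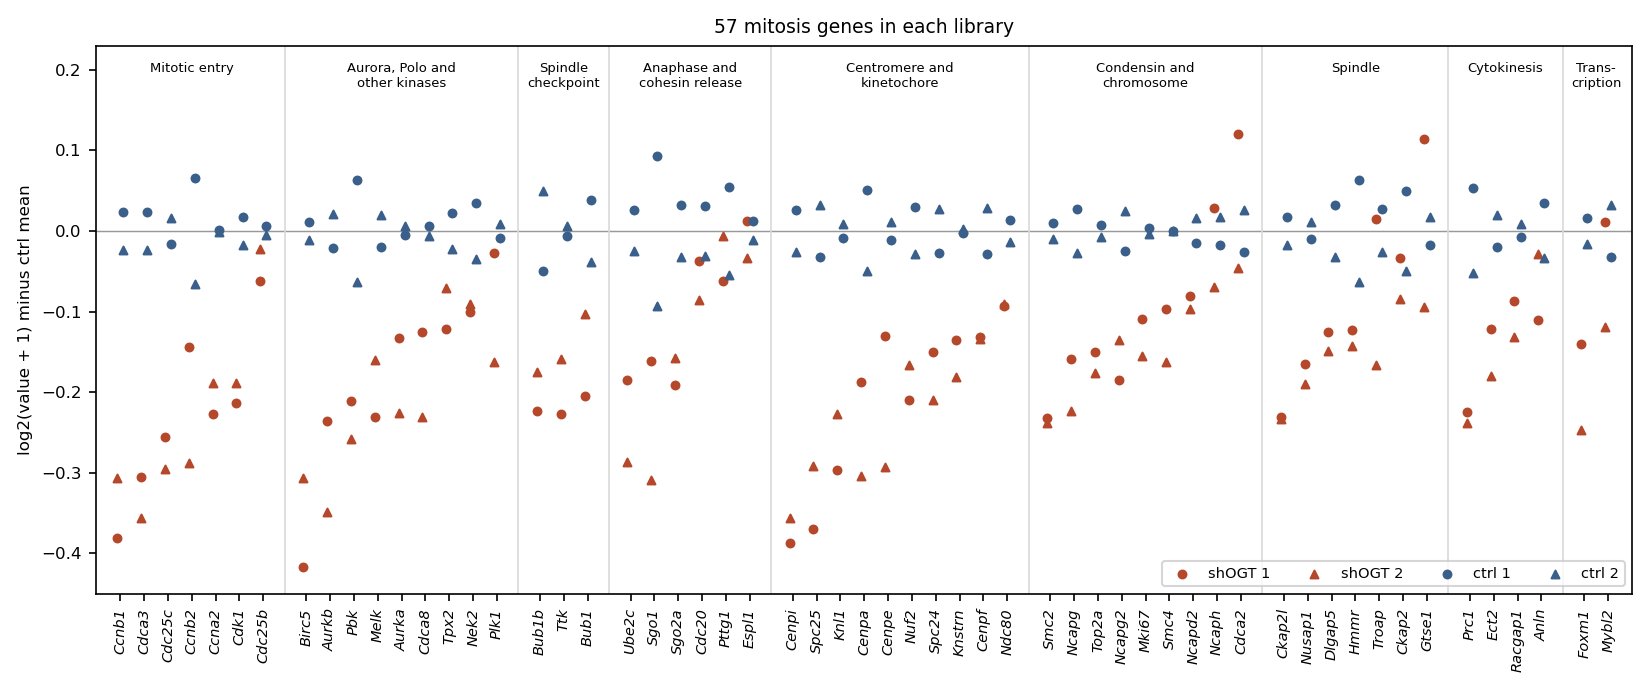
Level of each of the 57 genes in each library as log2(value + 1) minus the ctrl mean of that gene, grouped by role and ordered by fold change; red symbols to the left are shOGT, blue symbols to the right ctrl, circles replicate 1 and triangles replicate 2. In 48 genes both red symbols lie below both blue ones, and the red circles of Cdca2 and Gtse1 stand above 0.1.

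**Figure D3:**
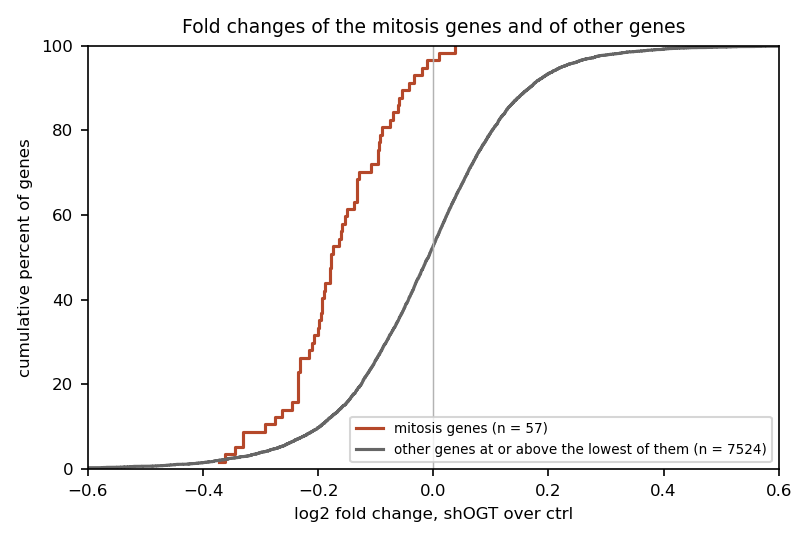
Cumulative percent of genes against the log2 fold change of shOGT over ctrl, for the 57 mitosis genes and the 7524 other genes expressed at or above the lowest of them; the axis is drawn from -0.6 to 0.6. The curve of the mitosis genes lies to the left over most of its range, with 55 of 57 genes below 0, against 53% of all genes of that level.

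The counts by role are read against the genes expressed at or above the lowest mitosis gene. Of those, 6.9% were called lower and 19.7% were lower at an unadjusted limma p under 0.05. In 34.4% of them both shOGT values lay under both ctrl values. Roles were not tested against each other. Of 7 genes of mitotic entry, 4 were lower, with both shOGT values under both ctrl values in all 7. Ccnb1 encodes cyclin B1, the partner of CDK1, and lies on the minus strand of chromosome 13 at 100778650 to 100786570 on GRCm38. It measured 3393 and 3573 in shOGT and 4493 and 4348 in ctrl. It fell by 21.2%, with a log2 fold change of -0.34 ± 0.04 (limma adjusted p = 0.00332), the smallest adjusted p of the 57. Its window above holds TTTAAA, and its pseudogene copy Ccnb1-ps, which could share reads, measured 79.7 and 64.1 in shOGT and 66.8 and 91.3 in ctrl.

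Cdca3, described as a trigger of mitotic entry, measured 1681 and 1622 in shOGT and 2110.2 and 2043 in ctrl (-0.33 ± 0.05, limma adjusted p = 0.00635). Cdk1, the kinase itself, measured 2563 and 2607 in shOGT and 3007 and 2936 in ctrl (-0.20 ± 0.04, limma adjusted p = 0.0277). Ccna2, cyclin A2, measured 2906 and 2985 in shOGT and 3405 and 3398 in ctrl (-0.21 ± 0.04, limma adjusted p = 0.0213). In each of these genes the groups were apart by more than the distance between replicates. Exons of Ccna2 overlap those of Exosc9 on the other strand over 12.49% of their bases, and whether counting used strand is not given in the sources used here. Ccnb2, cyclin B2, has a pseudogene copy, Ccnb2-ps, at 63.8 and 54.7 in shOGT and 50.9 and 62.5 in ctrl, and itself measured 1342 and 1214 in shOGT and 1553 and 1417 in ctrl and did not pass (-0.22 ± 0.07, limma adjusted p = 0.106). Of the CDC25 phosphatases that activate CDK1, Cdc25c had a log2 fold change of -0.28 and Cdc25b one of -0.04, with a 95% interval of -0.17 to 0.09, and neither passed. Exons of Cdc25c overlap those of Gm3550 on the other strand over 12.7% of their bases.

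Among the Aurora, Polo and other mitotic kinases and their partners, 3 of 9 were lower. The chromosomal passenger complex corrects faulty kinetochore attachments, and its genes Birc5 and Aurkb had the largest falls of these 9. Birc5, survivin, measured 1083 and 1169.8 in shOGT and 1458 and 1435 in ctrl, and fell by 22.1% (-0.36 ± 0.06, limma adjusted p = 0.00889). Aurkb, its kinase, measured 1429 and 1321 in shOGT and 1658 and 1707 in ctrl (-0.29 ± 0.06, limma adjusted p = 0.0184). Cdca8, borealin, stood at -0.18 and did not pass (limma adjusted p = 0.0881), and the scaffold Incenp, which is outside the 57 and was named after its values were seen, at -0.11. The complex thus had 2 called genes among its 3 listed members, with values from -0.36 to -0.18.

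Aurka, the spindle pole Aurora kinase, had a log2 fold change of -0.18 ± 0.06 (limma adjusted p = 0.106), and its activator Tpx2 one of -0.10. Plk1, the Polo kinase, measured 1976 and 1799 in shOGT and 2003 and 2026 in ctrl and did not pass, with an interval of -0.22 to 0.03. Pbk, a mitotic kinase also known as TOPK, measured 2199.7 and 2129 in shOGT and 2662 and 2437 in ctrl (-0.23 ± 0.05, limma adjusted p = 0.0362). Melk (-0.20) and Nek2, a centrosomal kinase (-0.10), did not pass. That Aurkb and not Aurka passed does not show that they differ, since the difference between the genes was not tested.

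The spindle checkpoint genes stood close together, with 0 of 3 called by limma and 3 of 3 at an unadjusted p under 0.05. Bub1b, BUBR1, which inhibits CDC20, measured 2017 and 2084 in shOGT and 2275 and 2436 in ctrl (-0.20 ± 0.05, limma adjusted p = 0.0537). The kinase genes Ttk and Bub1 stood at -0.19 and -0.15. Both shOGT values of all 3 lay under both ctrl values, as in 34.4% of the genes of that level, of which 19.7% were lower unadjusted.

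Of 6 anaphase genes, 1 was lower. Ube2c, the ubiquitin-conjugating enzyme of the anaphase-promoting complex, measured 2218 and 2067 in shOGT and 2566 and 2477 in ctrl (-0.24 ± 0.05, limma adjusted p = 0.0296). Exons of Ube2c overlap those of Tnnc2 on the other strand over 22.77% of their bases. Sgo1 and Sgo2a, which protect cohesin at the centromere, stood at -0.24 and -0.17 without passing, and 35% of the exon bases of Sgo2a overlap Kctd18. Cdc20, the activator of the complex, measured 3579 and 3462 in shOGT and 3754 and 3595 in ctrl, with a log2 fold change of -0.06 and an interval of -0.16 to 0.03. Espl1, the protease separase that cuts cohesin, measured 1289 and 1249 in shOGT and 1288 and 1268 in ctrl, with an interval of -0.13 to 0.10, and Pttg1, its inhibitor securin, had one of -0.21 to 0.14. Falls of the size of that of Ccnb1 lie outside the intervals of Cdc20, Espl1 and Pttg1.

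Of 10 centromere and kinetochore genes, 4 were lower, and all 10 had both shOGT values under both ctrl values. Among genes of that level the shares were 6.9% and 34.4%. Cenpi encodes a subunit of the inner kinetochore network and lies on the plus strand of the X chromosome at 134308084 to 134362639. It measured 531 and 542 in shOGT and 707 and 681 in ctrl, the largest fall of the 57 (-0.37 ± 0.07, limma adjusted p = 0.0146), and its promoter held CCAAT but no CHR-like motif. Cenpa, the histone H3 variant that marks the centromere, measured 1991 and 1836 in shOGT and 2349 and 2190.3 in ctrl (-0.25 ± 0.06, limma adjusted p = 0.0394). Knl1, the scaffold that recruits BUB1, measured 1154 and 1210.4 in shOGT and 1409 and 1425 in ctrl (-0.26 ± 0.05, limma adjusted p = 0.0236).

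The NDC80 complex, which grips the microtubule, has 4 subunits in equal number, and their transcripts gave unequal values. Spc25 measured 1097 and 1159 in shOGT and 1386 and 1450.3 in ctrl (-0.33 ± 0.06, limma adjusted p = 0.0119). Nuf2 (-0.19), Spc24 (-0.18) and Ndc80 (-0.09) did not pass. The interval of Ndc80 was -0.22 to 0.04 and that of Spc25 was -0.45 to -0.21, and the difference between them was not tested. Of the outer kinetochore proteins, Cenpe stood at -0.21, Knstrn at -0.16 and Cenpf at -0.13, none of which passed.

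Of 9 condensin and chromosome genes, 2 were lower. Smc2, an ATPase core subunit of condensin I and II, measured 3151 and 3139 in shOGT and 3726 and 3677 in ctrl (-0.23 ± 0.04, limma adjusted p = 0.0113). Its partner Smc4 stood at -0.13 (limma adjusted p = 0.124). Of the condensin I subunits, Ncapg stood at -0.19, Ncapd2 at -0.09 and Ncaph at -0.02, where the groups overlapped at 1904 and 1779.7 in shOGT against 1845 and 1889.7 in ctrl. Exons of Ncapg overlap those of Lcorl, which had a mean value of 916, on the other strand over 13.4% of their bases. The condensin II subunit Ncapg2 stood at -0.16. Outside the 57 and named after their values were seen, the condensin II genes Ncaph2 and Ncapd3 stood at -0.13 and 0.05, and neither passed.

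Top2a, the topoisomerase that untangles sister chromatids, and Mki67, which encodes the proliferation marker Ki-67 that coats mitotic chromosomes, had the highest values of the 57. Top2a measured 11391 and 11181 in shOGT and 12704 and 12571 in ctrl (-0.16 ± 0.03, limma adjusted p = 0.0217). Mki67 measured 10749 and 10415 in shOGT and 11628 and 11570.3 in ctrl and missed the threshold (-0.13 ± 0.03, limma adjusted p = 0.0536). In both genes the groups were apart by more than their replicates. Cdca2, Repo-Man, which brings a phosphatase to anaphase chromosomes, was the gene with the highest log2 fold change of the 57 (0.04, interval -0.12 to 0.19), with 1000.5 and 892 in shOGT against 904 and 937 in ctrl.

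Of 7 spindle genes, 1 was lower. Ckap2l, known in mouse neural progenitors as radmis, a spindle protein, measured 2046 and 2041 in shOGT and 2429 and 2371 in ctrl (-0.23 ± 0.04, limma adjusted p = 0.0183). The microtubule-binding genes Nusap1, Dlgap5 and Hmmr stood at -0.18, -0.14 and -0.13 without passing, with the groups apart. In Troap (-0.08), Ckap2 (-0.06) and Gtse1 (0.01) the groups overlapped. Gtse1 measured 1196 in shOGT 1 and 1035 in shOGT 2, with the ctrl libraries at 1092 and 1118 between them.

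Of 4 cytokinesis genes, 1 was lower. Prc1, which bundles microtubules of the spindle midzone, measured 2773 and 2746 in shOGT and 3359.8 and 3123 in ctrl (-0.23 ± 0.05, limma adjusted p = 0.0248), and 11.1% of its exon bases overlap Rccd1. Ect2, the activator of RhoA at the division site, and its partner Racgap1 stood at -0.15 and -0.11, and Anln, a scaffold of the contractile ring, at -0.07. Of the transcription factors that switch on late cell cycle genes, neither passed. Foxm1 measured 1982 and 1840.1 in shOGT and 2209 and 2161 in ctrl (-0.19 ± 0.05, limma adjusted p = 0.0631), and Mybl2, B-MYB, stood at -0.05 with overlapping groups (interval -0.21 to 0.10).

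**Figure D4:**
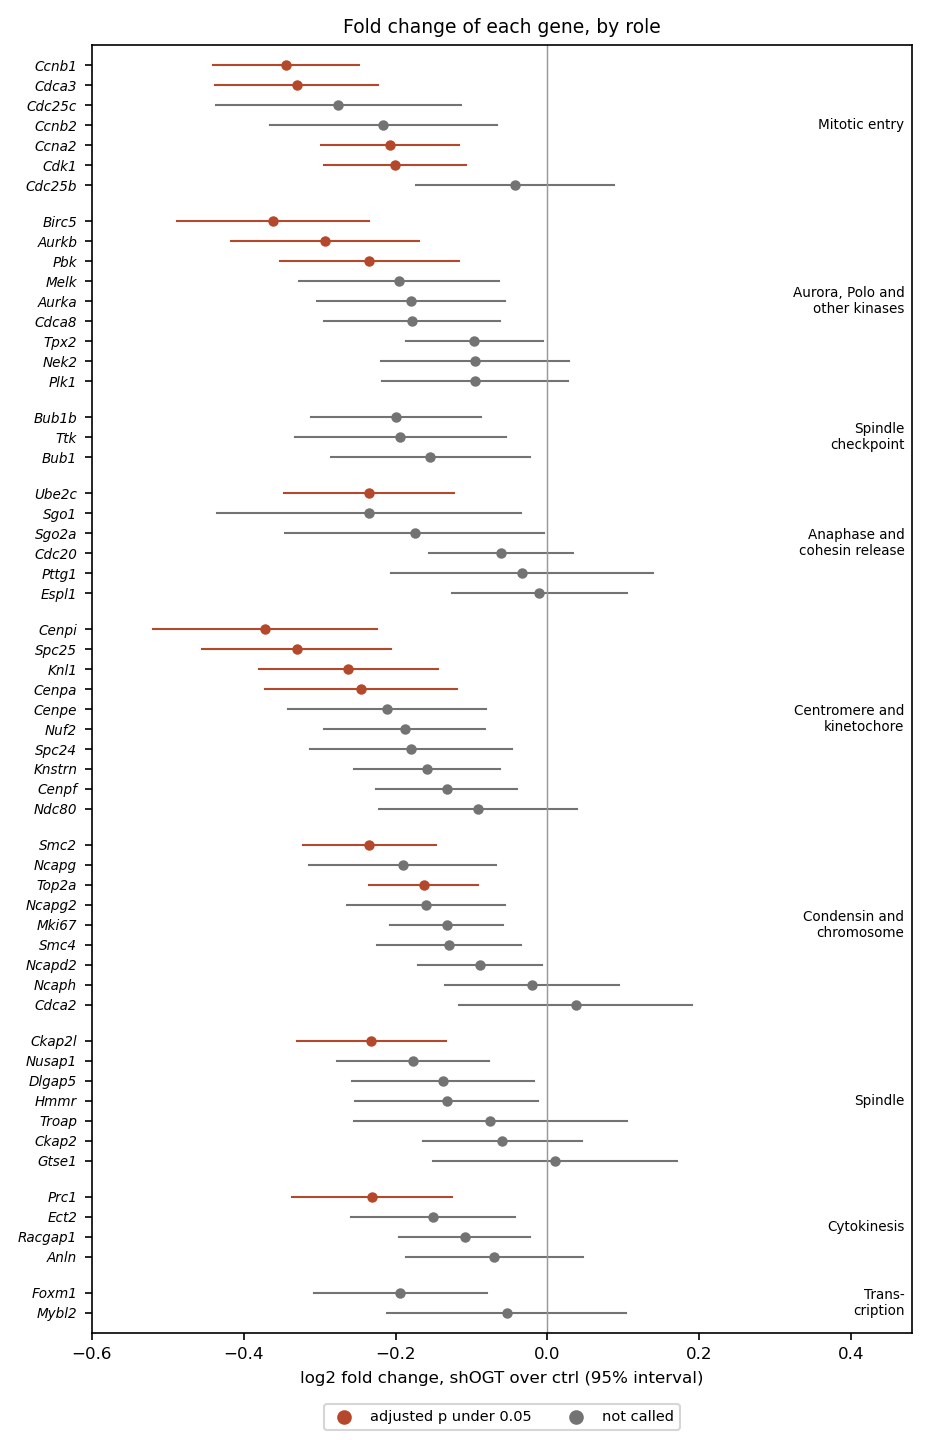
Log2 fold change of shOGT over ctrl for each of the 57 genes, by role, on the log2(value + 1) scale; points are limma estimates, lines 95% intervals, and red marks the 16 genes with an adjusted p under 0.05. The estimates run from -0.37 (Cenpi) to 0.04 (Cdca2).

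**Figure D5:**
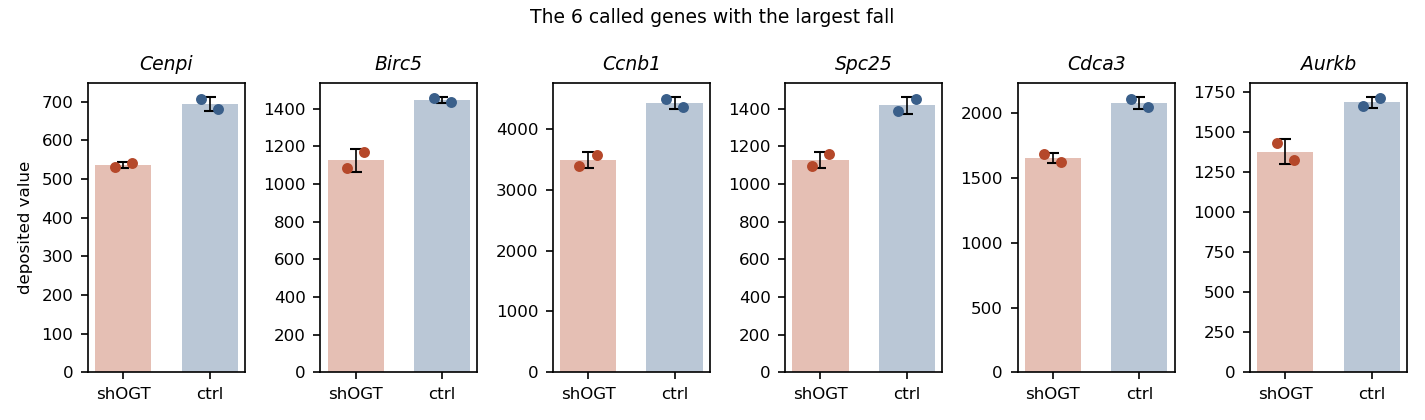
Deposited values of the 6 called genes with the largest falls, shOGT to the left of ctrl; bars are means, error bars SD (n = 2 each) and points libraries. Cenpi measured 531 and 542 in shOGT and 707 and 681 in ctrl.

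As mean value per kilobase of annotated exon, Cdc20 was highest at 1885 in shOGT and 1967 in ctrl, followed in ctrl by Pbk (1209 in shOGT, 1424 in ctrl) and Top2a (1252 in shOGT, 1402 in ctrl). The lowest were Sgo2a (57.6 in shOGT, 65.02 in ctrl), Cdc25c (88.2 in shOGT, 107 in ctrl) and Cenpi (94.4 in shOGT, 122 in ctrl). Of these 6 genes, Pbk, Top2a and Cenpi were called lower and Cdc20, Sgo2a and Cdc25c were not.

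By promoter, the 36 genes with a CHR-like motif had a median log2 fold change of -0.18, with 12 called lower. The 11 genes with a promoter and no such motif had one of -0.16, with 1 called lower (Cenpi). The 10 genes with no matched promoter had one of -0.19, with 3 called lower. None of these values is tested against another. By 3′ UTR, 12 of the 57 genes (21.1%) held GCTATC or GTACCC, hexamers that an earlier account of these data had examined, against 38.9% of the genes of that level. A hexamer in any annotated 3′ UTR of a gene was counted, and the length of the UTRs was not taken into account. The 45 genes without them had a median of -0.16, with 12 called lower, beside -0.21 and 4 called lower among the 12 with them. Among the 16 called genes, Birc5, Spc25, Ube2c and Smc2 held such a hexamer.

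The other cell cycle lists are read against the 2.9% of all genes tested and the 6.9% of genes of that level called lower. The lists were not limited to that level, a mean of at least 429, so it is not an exact match for them. Fen1, for example, averaged 138 in shOGT and 197 in ctrl. Of 87 further genes of mitosis, 7 (8.05%) were lower and 0 higher by limma (32 lower and 3 higher at an unadjusted p under 0.05), with a median of -0.09. Anapc5, a subunit of the anaphase-promoting complex, fell by 23.1% (-0.38 ± 0.04), and Mad2l1, the checkpoint protein MAD2, Tacc3, a spindle protein, and Cep55, which acts in abscission, had log2 fold changes of -0.31, -0.27 and -0.27. Of 12 mitotic kinesins 1 (8.33%) was lower, Kif11 (-0.23 ± 0.04), with a median of -0.12. Of 55 genes of G1/S and replication, 7 (12.7%) were lower and 0 higher (20 and 1 at an unadjusted p under 0.05), with a median of -0.09. They included Fen1 (-0.52), Gmnn, the replication inhibitor geminin (-0.49), Rpa3 (-0.39) and Dbf4, the activator of the CDC7 kinase (-0.38). Of 20 genes of the DREAM complex and its partners, 1 (5%) was lower, Nfyb, a subunit of the CCAAT-binding NF-Y and not of DREAM itself. Nfyb measured 574 and 556 in shOGT and 733 and 679 in ctrl (-0.32 ± 0.07, limma adjusted p = 0.0324). The shares called lower of the further mitosis genes, the kinesins and the DREAM genes were thus near that of genes of that level. Their direction was less alike: 66 of the 87, 11 of the 12 and 11 of the 20 stood below 0, against 53%. Both shOGT values lay under both ctrl values in 54%, 75% and 35% of them, against 34.4%. Of the 55 genes of G1/S and replication, 41 stood below 0, and in 49.1% both shOGT values lay under. The differences between these lists and the 57 genes were not tested.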

How the data were processed

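RNA sequencing of 4 libraries was used, grouped and numbered by sample title. The authors deposited, for each library, a signal value for each of 25261 Ensembl identifiers. The submitters' processing notes name the build mm10. No aligner, counting tool, strand setting or normalization is named there, and each is not given in the sources used here. All values (100%) were whole multiples of 1 step per library within 0.01 of a step, and the replicate check alone took each step as 1 read (genes with at least 20). Symbols, lengths and 3′ UTRs came from GENCODE M21 (GRCm38), which matched 25242 identifiers.

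The groups were compared with limma 3.58.1 in R 4.3.3 (empirical Bayes, variance trend) on log2(value + 1). Genes entered when 2 or more libraries reached 1, and p-values were adjusted by Benjamini-Hochberg over all of them. Fold changes on this scale understate changes of low genes. The fit was also run on simulated data, in which the spread between replicates was a set value and not estimated from these libraries. That run does not show how reliable the calls are here. An exact permutation test of 2 against 2 cannot go below 0.333. The step was 1.063 and 0.943 in shOGT and 0.997 and 0.992 in ctrl. No count test was run, because no source used here states that a step is 1 read or how the values were scaled.

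Full values are given for up to 5 called genes per role, largest fold change first, otherwise for the gene with the smallest p, and for Cdk1, Mki67 and Top2a. Further values of other members were chosen after they were seen. The members and lists were chosen with earlier results of these data known, and the background of genes at or above the lowest member was added after seeing the data.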

Additional observations from a re-analysis of the deposited data

How the results depend on the processing

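The number of genes called in all was 1060. With quantile normalization, no filter and no variance trend, limma called 0 of the 57 genes, and the genes called in all were 0 (3998, 4302 and 2763 at an unadjusted p under 0.05). Ogt then missed the threshold at log2 fold changes of -0.25, -0.26 and -0.26. At a minimum value of 10, 30 of the 57 genes were called, with all 16 main calls among them, and the genes called in all were 1955. Leaving out each library in turn gave 0 to 0 calls among the 57, 0 to 0 genes called in all (2484 to 3389 at an unadjusted p under 0.05), a median of -0.18 to -0.14, and -0.29 to -0.23 for Ogt without a call. The lone library of a group is then assumed to vary like those of the other group. Pseudocounts of 0.5 and 5 and libraries rescaled to equal totals gave 16, 19 and 16 calls, each with all 16 main calls. The 51 genes with under 10% exon overlap, an alternative chosen after seeing the data, had 13 calls and a median of -0.16. None of the 57 was called higher under any of the 12 alternative settings. Those that called 0 genes in all could not have shown such a call.

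A fit with the replicate number as a block called 30 of the 57 genes, all 16 main calls among them, and the genes called in all were 2302. The differences between replicate 1 and replicate 2 of the groups correlated at 0.024 across 11080 genes. What libraries of the same number share is not stated in the labels, and a single correlation cannot settle it.

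The 16 called genes kept a negative fold change under all 12 settings, but most of these settings could not have turned it. A changed filter, no variance trend and the replicate block leave the fold change as it is. In all 16 genes both shOGT values lay under both ctrl values, so leaving out a single library cannot turn the sign. Espl1 turned to 0.0061 with equal totals and 0.0068 with quantile normalization. Without single libraries the log2 fold change ran from -0.033 to 0.012 for Espl1, -0.045 to 0.12 for Cdca2, -0.094 to 0.11 for Gtse1, -0.12 to 0.012 for Mybl2, -0.069 to 0.028 for Ncaph, -0.089 to 0.021 for Pttg1 and -0.17 to 0.015 for Troap. The planned edgeR and DESeq2 alternatives were not run. The causes of these differences were not tested. With 2 libraries a group, the SE of the 57 log2 fold changes ran from 0.03 for Top2a to 0.09 for Sgo1.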
